A study of Mus musculus with 8 samples.

Results

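Complex I of the respiratory chain, the NADH:ubiquinone oxidoreductase, was described here through the 44 genes whose symbols begin with Nduf, in kidneys of control and Lim1 conditional mutant mouse embryos. The members were all genes with such a symbol among the 18194 genes that the platform table named alone on a probe set. They were read by 88 probe sets, and where a gene had several, the probe set with the highest mean signal over all arrays stood for the gene. The 44 genes comprised 6 core subunits, 28 accessory subunits, 8 assembly factors and 2 genes, Ndufa4 and Ndufa4l2, that carry the Nduf name although the product of Ndufa4 is now placed in complex IV and Ndufa4l2 is its paralog. 42 of the 44 were measured, meaning that both arrays of at least 1 pool reached the 40th percentile of their own signals, against 13915 of all 18194 genes.

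Whole kidneys of embryos of both sexes and mixed strain (129, C57BL/6 and SJL/J) were pooled into 4 RNA preparations, and each pool was hybridised to 2 Affymetrix Mouse Genome 430 2.0 arrays. The control pools held 23 embryos at E14.5 and 14 embryos at E18.5 with the genotype Lim1 flox/+; Rarb2-Cre tg/+. The mutant pools held 17 embryos at E14.5 and 9 embryos at E18.5 with the genotype Lim1 flox/lacZ; Rarb2-Cre tg/+. All 4 pools thus carried the Cre transgene, which acts in the metanephric mesenchyme, and a floxed Lim1 allele, while the lacZ null allele was present throughout the mutant embryo, ureteric bud included, and in no control. The duplicate arrays of a pool were separate target preparations of 1 RNA, so each condition had 1 biological replicate and no p-value between conditions was computed. Errors of ratios are therefore given as the lowest and highest of the 4 pairings of an array of each pool, and cover technical spread only. The targeted gene, Lhx1, was read by 2 probe sets, and neither was lower in both mutant pools than in the control pool of the same stage. Where these probe sets lie relative to the deleted part was not given in the sources used here, so they do not check the labels. Of 6 nephron progenitor markers, at least 5 reached the 40th percentile in every pool.

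Complex I takes electrons from NADH at the tip of its matrix arm, passes them along a chain of iron-sulfur clusters to ubiquinone, and uses the energy to pump protons through its membrane arm. Core subunits hold the flavin and the clusters, accessory subunits surround them, and assembly factors are needed to build the complex but are absent from the finished enzyme. Further core subunits are encoded by mitochondrial DNA and are not members here. In the kidney, tubule cells that reabsorb salt and solutes, such as those of the proximal tubule and the thick ascending limb, are rich in mitochondria.

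The main pattern was a split at E18.5. Most members were brighter in the E18.5 control pool than in any other pool, and most were dimmer in the E18.5 mutant pool than in either E14.5 pool. The pool with the highest mean was the E18.5 control in 35 of 42 members, and the pool with the lowest mean was the E18.5 mutant in 26 of 42. Both E18.5 control arrays lay above all 6 other arrays in 31 members, against 15.5% of all measured genes. These 31 were 6 of 6 core subunits, 21 of 26 accessory subunits, 3 of 8 assembly factors and 1 of the 2 genes outside complex I. Both E18.5 mutant arrays lay below all 6 other arrays in 22 members (4 core, 16 accessory and 2 assembly), against 5.8% of all measured genes. RNA came from whole organs, so fewer cells of a type and less RNA per cell cannot be told apart.

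**Figure D1:**
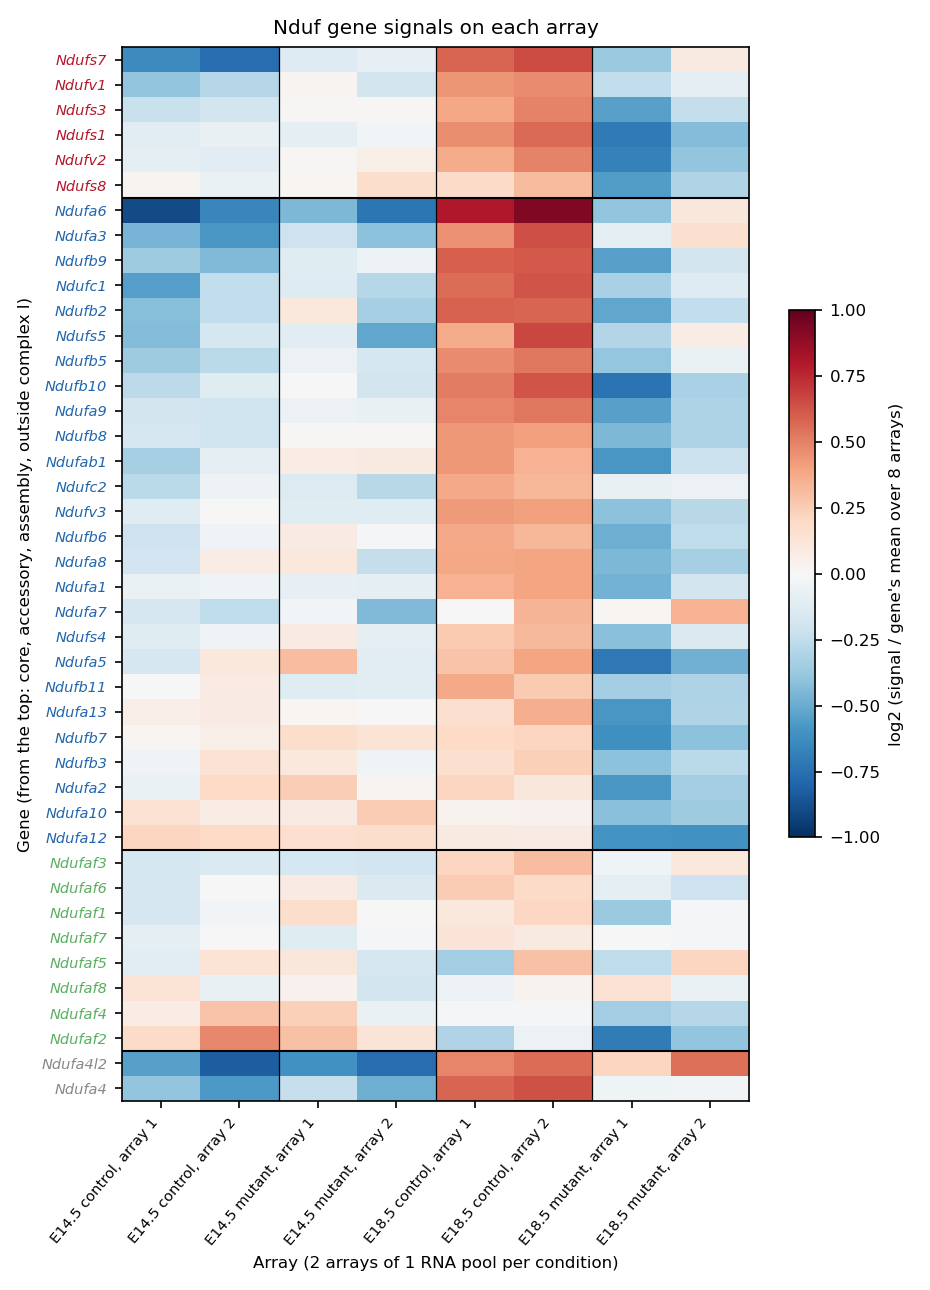
Signals of the 42 measured Nduf genes on each of the 8 arrays (columns), as log2 of the signal over the gene's mean across arrays, with genes (rows) ordered by class and, within a class, by the ratio of E18.5 control over E14.5 control. Red is above and blue below the gene's mean. The E18.5 control columns are red in nearly all subunit rows and the E18.5 mutant columns mostly blue, while the 8 assembly factor rows are paler.

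The duplicate arrays set the limit of what could be read. The median fold between duplicates over the 42 members was 1.09 in the E14.5 control, 1.11 in the E14.5 mutant, 1.05 in the E18.5 control and 1.19 in the E18.5 mutant pool, close to the medians over all measured genes (1.10, 1.08, 1.06 and 1.15). The E18.5 mutant arrays stood apart in that array 1 was dimmer than array 2 in 38 of 42 members, by a median log2 difference of -0.25 against -0.04 over all measured genes. The largest fold between these 2 arrays was 1.42, for Ndufa6. Across all pools the largest was 1.55, for Ndufaf5 in the E18.5 control.

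In control kidneys, the first comparison asked which genes differed between E14.5, when nephrons are just forming, and E18.5, when mature nephrons are present. Over the 42 members, the stage ratio (E18.5 control to E14.5 control) had a log2 median of 0.46 (0.41 to 0.55 over the 4 pairings), a median ratio of 1.38, against a median log2 ratio of 0.02 over all measured genes. 36 members were above 0. 35 members were higher in E18.5 with arrays that did not overlap between the pools and 4 were lower, against 37.4% and 28.7% of all measured genes. At the 2-fold criteria (a ratio of at least 2 that also exceeds the fold between duplicates, with a minimum signal), 6 members were higher and 0 lower, against 4.66% and 1.58%. With the ratio set at 1.5, 17 were higher, against 11.2%. The median was 0.63 (0.56 to 0.70) for core subunits, 0.48 (0.42 to 0.58) for accessory subunits and 0.07 (0.07 to 0.27) for assembly factors.

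Of the members at least 2-fold higher, Ndufa6 had the highest ratio. It encodes an accessory subunit of the LYR family that holds an acyl carrier protein on the matrix arm. Its signals were 766 and 904 in the E14.5 control, 1042 and 861 in the E14.5 mutant, 2484 and 2701 in the E18.5 control and 1082 and 1540 in the E18.5 mutant pool, a ratio of E18.5 control over E14.5 control of 3.10 (2.75 to 3.52). Both E18.5 control arrays exceeded every other array, and the E18.5 mutant arrays came next, above all 4 E14.5 arrays.

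Ndufs7 encodes the core subunit with the last iron-sulfur cluster before ubiquinone. Its signals were 822 and 754 (E14.5 control), 1172 and 1206 (E14.5 mutant), 1918 and 2011 (E18.5 control) and 992 and 1365 (E18.5 mutant). The E18.5 control pool stood at 2.49 (2.33 to 2.67) times the E14.5 control, while the E18.5 mutant arrays lay on either side of the E14.5 mutant arrays. The E14.5 control pool was the lowest of the 4, and its arrays fell below both E14.5 mutant arrays.

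Ndufa3, a small accessory subunit of the membrane arm, gave 1915 and 1757 in the E14.5 control, 2280 and 1984 in the E14.5 mutant, 3617 and 4131 in the E18.5 control and 2462 and 2942 in the E18.5 mutant pool. Its ratio in controls was 2.11 (1.89 to 2.35), and both E18.5 pools lay above both E14.5 pools. Ndufb9, another LYR family subunit at the membrane arm, gave 1965 and 1843 (E14.5 control), 2301 and 2411 (E14.5 mutant), 3794 and 3836 (E18.5 control) and 1720 and 2204 (E18.5 mutant). Its ratio in controls was 2.00 (1.93 to 2.08), so that some array pairings fell short of 2. Here the mutant pools went the other way, both E18.5 mutant arrays lying below both E14.5 mutant arrays.

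The 2 genes outside complex I completed the set. Ndufa4, a subunit of cytochrome c oxidase, gave 2464 and 2177 in the E14.5 control, 2760 and 2315 in the E14.5 mutant, 4842 and 5033 in the E18.5 control and 3143 and 3180 in the E18.5 mutant pool, with ratios of 2.13 (1.97 to 2.31) in controls and 1.25 (1.14 to 1.37) in mutants. Its lowest pairing in controls was also under 2. Ndufa4l2, the Ndufa4 paralog known to respond to low oxygen, gave 279 and 230.4 (E14.5 control), 267 and 240.1 (E14.5 mutant), 570.1 and 599.7 (E18.5 control) and 472 and 597 (E18.5 mutant). With ratios of 2.29 (2.04 to 2.60) in controls and 2.11 (1.77 to 2.48) in mutants it was at least 2-fold higher at E18.5 in both genotypes, and its E18.5 control and mutant arrays overlapped.

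At the other end, 6 members had log2 ratios below 0 in controls by their brightest probe set. Of these, Ndufa12 (0.29 and 0.01), Ndufaf4 (0.07) and Ndufaf8 (0.44) had other measured probe sets above 0. Ndufaf2, an assembly factor that occupies the place of its paralog Ndufa12 until the complex is finished, had the lowest log2 ratio, -0.51, from signals of 503 and 615 in the E14.5 control, 541 and 484 in the E14.5 mutant, 359 and 424 in the E18.5 control and 272 and 336 in the E18.5 mutant pool. Both E18.5 pools were below both E14.5 pools. Ndufaf4, an assembly factor of the quinone-binding part, followed with a log2 ratio of -0.19. Its signals were 542 and 627 (E14.5 control), 608 and 491 (E14.5 mutant), 511 and 512 (E18.5 control) and 404 and 423 (E18.5 mutant). Ndufa12, the accessory subunit that replaces Ndufaf2, had signals of 2854 and 2835 in the E14.5 control, 2760 and 2786 in the E14.5 mutant, 2621 and 2600 in the E18.5 control and 1624 and 1623 in the E18.5 mutant pool, with a log2 ratio of -0.12 in controls and -0.77 in mutants. The other pools ran from 2600 to 2854, and both E18.5 mutant arrays stood apart below them.

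**Figure D2:**
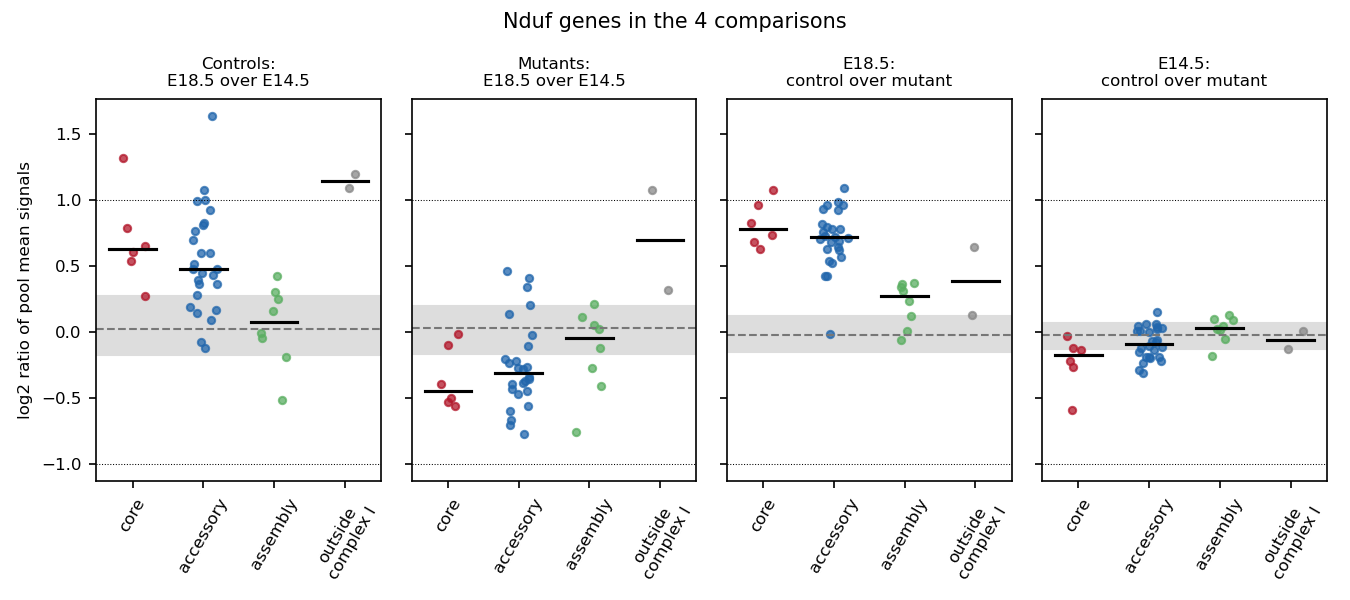
Log2 ratios of pool mean signals (vertical axis) of the 42 measured Nduf genes in the 4 comparisons, by class; each point is 1 gene, black bars are class medians, the grey band spans the 25th to the 75th percentile of all measured genes, the dashed line is their median and dotted lines mark a 2-fold ratio. Core and accessory medians lie above the grey band for E18.5 over E14.5 in controls and for control over mutant at E18.5, below it for E18.5 over E14.5 in mutants, and within or just under it at E14.5; assembly factor medians lie within the band except for control over mutant at E18.5, where the median is 0.27.

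In mutant kidneys, the same comparison of stages ran in the opposite direction for most members. The stage ratio in mutants had a log2 median of -0.27 (-0.47 to -0.11), against 0.03 over all measured genes, and 31 of 42 members were below 0. Arrays did not overlap in 7 members higher and 25 members lower at E18.5, against 30.5% and 25.3% of all measured genes. By the 2-fold criteria only Ndufa4l2 was higher and 0 members were lower, against 1.17% and 0.97%. Without E18.5 mutant array 2 that count was 0. With the ratio set at 1.5, 5 members were lower, against 5.05%. The class medians were -0.45 (-0.62 to -0.29) for core subunits, -0.31 (-0.49 to -0.15) for accessory subunits and -0.05 (-0.27 to -0.01) for assembly factors. Array 1 of the E18.5 mutant pool was the dimmer in most members, and the median over all members was -0.43 without array 2 and -0.19 without array 1.

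Besides Ndufa12 and Ndufaf2, the lowest ratio in mutants was that of Ndufa5, an accessory subunit of the quinone-binding part, with signals of 949 and 1149 (E14.5 control), 1320 and 990.4 (E14.5 mutant), 1298 and 1402 (E18.5 control) and 649.6 and 766 (E18.5 mutant). In controls Ndufa5 stood at 1.29 (1.13 to 1.48) and in mutants at 0.61 (0.49 to 0.77), and every pairing lay above 1 in controls and below 1 in mutants. Above 0 in mutants, after Ndufa4l2, came Ndufa6, Ndufa7, Ndufa3 and Ndufa4. Ndufa7, an accessory subunit of the matrix arm, gave 2756 and 2590 in the E14.5 control, 3044 and 2279 in the E14.5 mutant, 3100 and 3920 in the E18.5 control and 3141 and 3944 in the E18.5 mutant pool. Its ratio was 1.31 (1.12 to 1.51) in controls and 1.33 (1.03 to 1.73) in mutants, and its E18.5 control and mutant arrays overlapped. By its other 4 measured probe sets, Ndufa7 had log2 ratios of E18.5 control over mutant from 0.12 to 0.46.

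At E18.5, control kidneys were compared with mutant kidneys, in which nephrons do not form. The median log2 ratio of control over mutant was 0.68 (0.54 to 0.82), against -0.03 over all measured genes, and 40 of 42 members were above 0. Arrays did not overlap in 38 members, all higher in control and 0 lower, against 23.5% and 23.4% of all measured genes. At the 2-fold criteria 2 members, Ndufb10 and Ndufs1, were higher and 0 lower, against 2.29% and 0.129% of all measured genes. This count hung on single arrays: it was 0 without mutant array 1, 8 without mutant array 2 and 4 without control array 1, against 2.07%, 2.84% and 2.27% of the genes then measured. With the ratio set at 1.5, 27 members were higher, against 5.37%. The class medians were 0.78 (0.58 to 1.03) for core subunits, 0.72 (0.61 to 0.85) for accessory subunits and 0.27 (0.12 to 0.35) for assembly factors. Markers of several cell types moved in the same comparison, with their values given further on, and their part in the complex I values was not tested.

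Ndufs1 encodes the largest core subunit, which carries several of the iron-sulfur clusters of the electron input module. Its signals were 1197 and 1226 (E14.5 control), 1207 and 1266 (E14.5 mutant), 1778 and 1911 (E18.5 control) and 790.4 and 956 (E18.5 mutant), a ratio of E18.5 control over mutant of 2.11 (1.86 to 2.42). The E18.5 control arrays were the brightest and the E18.5 mutant arrays the dimmest, with the 4 E14.5 arrays close together between them. Ndufb10, an accessory subunit facing the intermembrane space, gave 729 and 804 in the E14.5 control, 878 and 771 in the E14.5 mutant, 1245 and 1355 in the E18.5 control and 524 and 698 in the E18.5 mutant pool. Its ratio was 2.13 (1.78 to 2.59), and the order of its pools was the same.

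Ndufa6 followed with a ratio of 1.98 (1.61 to 2.50), and then came Ndufb2 and Ndufv2. Ndufb2, a small subunit of the membrane arm, gave 1207 and 1366 (E14.5 control), 1746 and 1289 (E14.5 mutant), 2445 and 2433 (E18.5 control) and 1134 and 1368 (E18.5 mutant). Its E18.5 control arrays read 1.95 (1.78 to 2.16) times the mutant, and both E14.5 pools lay below the E18.5 control. Ndufv2, the core iron-sulfur subunit beside the flavin site, gave 2561 and 2558 in the E14.5 control, 2767 and 2859 in the E14.5 mutant, 3546 and 3877 in the E18.5 control and 1719 and 2091 in the E18.5 mutant pool, a ratio of 1.95 (1.70 to 2.26). The E18.5 mutant arrays were the lowest of the 8.

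The 3 members with the lowest ratios of control over mutant at E18.5 were Ndufaf8, Ndufa7 and Ndufaf5, and in none of them were the arrays apart. Ndufaf8, the partner of Ndufaf5, gave 1883 and 1627 (E14.5 control), 1765 and 1505 (E14.5 mutant), 1641 and 1754 (E18.5 control) and 1896 and 1636 (E18.5 mutant), with a ratio of 0.96 (0.87 to 1.07), and its other probe set gave a log2 ratio of 0.30. Ndufaf5 modifies an arginine of the Ndufs7 protein during assembly. Its signals were 322 and 382 in the E14.5 control, 375 and 309 in the E14.5 mutant, 274 and 425 in the E18.5 control and 292 and 403 in the E18.5 mutant pool, a ratio of 1.01 (0.68 to 1.46) with the widest duplicates of all members. Ndufaf7, an assembly factor, gave 429 and 457 (E14.5 control), 421 and 455 (E14.5 mutant), 499.9 and 488 (E18.5 control) and 459 and 451 (E18.5 mutant), a ratio of 1.08 (1.06 to 1.11) with control arrays above mutant arrays.

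Among the other core subunits, Ndufv1 binds NADH and the flavin, and its signals were 817 and 882 in the E14.5 control, 1094 and 945 in the E14.5 mutant, 1453 and 1487 in the E18.5 control and 902 and 1001 in the E18.5 mutant pool. Ndufs3 stands in the connecting part of the matrix arm and gave 1555 and 1598 (E14.5 control), 1831 and 1837 (E14.5 mutant), 2380 and 2561 (E18.5 control) and 1248 and 1541 (E18.5 mutant). Ndufs8 carries clusters near the quinone site and gave 2100 and 1968 in the E14.5 control, 2088 and 2327 in the E14.5 mutant, 2349 and 2557 in the E18.5 control and 1397 and 1666 in the E18.5 mutant pool. All 3 were higher in the E18.5 control than in the E18.5 mutant pool without overlap, with ratios of 1.54 (1.45 to 1.65), 1.77 (1.54 to 2.05) and 1.60 (1.41 to 1.83). The 7 measured genes of the electron input module had a median log2 ratio of control over mutant of 0.69, the 4 of the quinone-binding module 0.78 and the 9 of the membrane arm with Ndufb names 0.72, so the parts of the enzyme did not separate from each other by more than the range over pairings (0.68 to 0.80, 0.56 to 1.03 and 0.62 to 0.87).

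At E14.5 the same comparison of genotypes gave little. The median log2 ratio of control over mutant was -0.07 (-0.17 to 0.04), against -0.02 over all measured genes. Arrays did not overlap in 5 members higher in control and 13 higher in mutant, against 14.4% and 25.5% of all measured genes. No member met the 2-fold criteria, with 0 higher and 0 lower, against 0.0934% and 0%. With the ratio set at 1.5, 1 member, Ndufs7, was lower, against 0.374%. Core subunits had a median of -0.18 (-0.18 to -0.16), accessory subunits of -0.09 (-0.21 to 0.06) and assembly factors of 0.03 (-0.14 to 0.13).

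The largest departure at E14.5 was that of Ndufs7, at 0.66 (0.62 to 0.70) times the mutant level, a log2 ratio of -0.59 that came to -0.34 by the mean of its probe sets. After it came Ndufb9 at 0.81 (0.76 to 0.85) and Ndufab1 at 0.82 (0.75 to 0.89). Ndufab1 encodes the mitochondrial acyl carrier protein, which also serves lipoic acid and iron-sulfur cluster synthesis outside complex I, and its signals were 1552 and 1839 (E14.5 control), 2062 and 2077 (E14.5 mutant), 2635 and 2491 (E18.5 control) and 1305 and 1683 (E18.5 mutant). On the other side stood Ndufb11, a membrane arm subunit encoded on the X chromosome, with signals of 3332 and 3548 in the E14.5 control, 3072 and 3113 in the E14.5 mutant, 4343 and 4023 in the E18.5 control and 2650 and 2703 in the E18.5 mutant pool and a ratio of 1.11 (1.07 to 1.16). Ndufa13, also known as GRIM-19, gave 2674 and 2699 (E14.5 control), 2584 and 2556 (E14.5 mutant), 2856 and 3284 (E18.5 control) and 1703 and 2068 (E18.5 mutant). Its ratio at E14.5 was 1.04 (1.03 to 1.06), and its E18.5 mutant arrays were the lowest of the 8. These 2 genes and Ndufaf2, Ndufaf8 and Ndufaf4 made up the 5 highest ratios at E14.5. Other probe sets turned several of these directions. At E14.5 another measured probe set gave a log2 ratio of 0.30 for Ndufab1, 0.07 for Ndufb9, -0.26 for Ndufb11, -0.06 for Ndufaf8 and -0.02 for Ndufaf4.

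The change with stage was then set against genotype. Per gene, the log2 change in controls minus that in mutants had a median of 0.72 over the 42 members (0.56 to 0.96 over the 16 choices of arrays), against 0.01 over all measured genes. The median was 1.07 (0.86 to 1.31) for core subunits, 0.76 (0.58 to 1.02) for accessory subunits and 0.22 (-0.003 to 0.52) for assembly factors. 39 of 42 members were above 0, all but Ndufa7, Ndufaf5 and Ndufaf8. The gene with the widest difference was Ndufs7 (1.33), followed by Ndufb9 (1.27), with Ndufb2, Ndufb10 and Ndufa6 next. In 20 members, 4 of them core, 15 accessory and 1 an assembly factor (Ndufaf1), the arrays were apart upward with stage in controls and apart downward in mutants, against 3.29% of all measured genes. These differences were not tested, since each pool was prepared from 1 RNA.

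**Figure D3:**
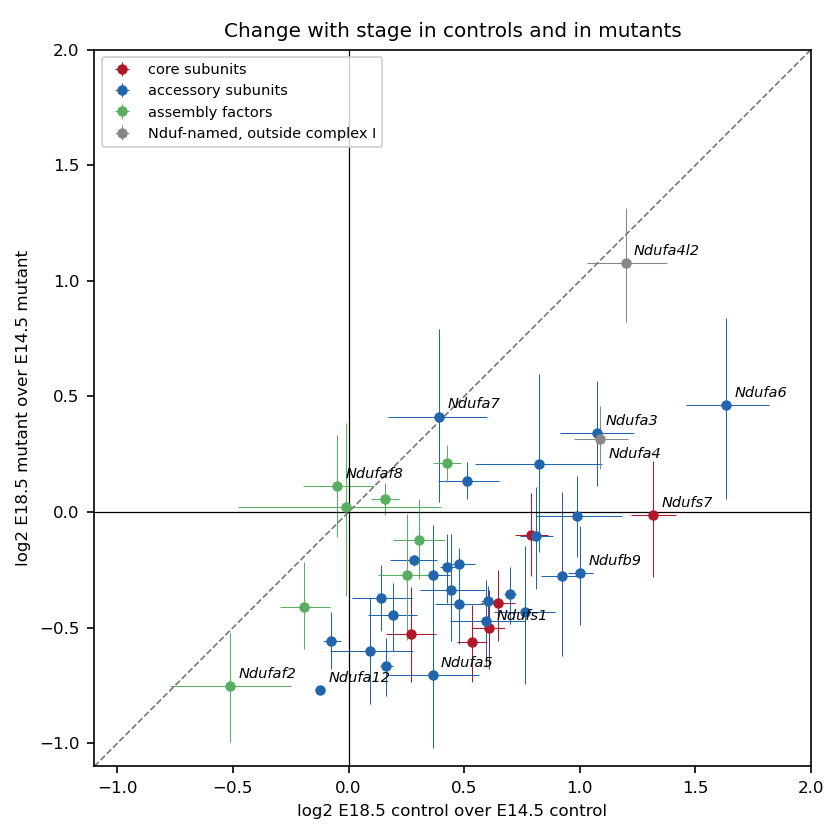
Log2 stage ratio (E18.5 to E14.5) in controls (horizontal axis) and in mutants (vertical axis) for the 42 measured Nduf genes; bars span the 4 array pairings and the dashed line marks an equal change. Most subunits lie at the lower right, up in controls and down in mutants. Ndufa4l2, Ndufa7, Ndufaf5 and Ndufaf8 lie on or near the dashed line. The 2 axes share no array; the Pearson correlation over the 42 genes was 0.56, against 0.66 over all 13915 measured genes.

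Probe sets of the same gene did not always give the same change with stage. Of the 21 genes with several measured probe sets, 13 had log2 ratios of E18.5 control over E14.5 control that spread by more than 0.5. The median spread over the 21 genes was 0.57 for this comparison, but only 0.14 for control over mutant at E18.5, and the genotype spread was the smaller in 16 of 21 genes. For Ndufs7 the brightest probe set, a plain _at one, gave a log2 ratio with stage of 1.32 and the other, an _a_at one, gave 0.27, while for control over mutant at E18.5 they gave 0.74 and 0.87. Ndufb11 read 0.28 by its brightest probe set, an _a_at one, and 1.33 by a plain one, against 0.64 and 0.71 for genotype. Ndufb7, a membrane arm subunit with signals of 1806 and 1856 in the E14.5 control, 2014 and 1951 in the E14.5 mutant, 2038 and 2063 in the E18.5 control and 1161 and 1339 in the E18.5 mutant pool, read 0.16 and 0.97 with stage against 0.71 and 0.75 for genotype.

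Stage ratios were also compared by kind of probe set, a grouping chosen after the values were seen. A suffix of _a_at marks probes shared by transcripts of 1 gene, and a plain _at marks probes unique to 1 transcript. In the 13 genes measured by both kinds, the plain probe sets had the higher stage ratio in 12 in controls and in 11 in mutants, with a median difference of 0.51 and 0.33. In controls the median log2 change with stage over these genes was 0.70 by plain and 0.28 by _a_at probe sets, and in mutants it was -0.10 and -0.54. For control over mutant at E18.5 the plain probe sets were higher in 5 of 13, and the medians were 0.72 and 0.86. The size of the stage ratios in both genotypes thus differed between kinds of probe set, while the median difference between genotypes at E18.5 was above 0 by both kinds.

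Some probe sets of a gene gave opposite signs. Of the 21 genes, 9 had a measured probe set with a sign other than that of the brightest with stage in controls, 4 with stage in mutants, 5 for control over mutant at E18.5 and 14 at E14.5. With stage in controls Ndufab1 read 0.60 by its brightest probe set and -0.63 by another. Ndufb2 read 0.92 by its brightest and -0.38 by its only plain probe set. Ndufb9 read 1.00 by its brightest and -0.08 by another probe set, which also read -0.16 for control over mutant where its other probe sets read 0.96 and 0.86. Over all 78 measured probe sets, 65 were above 0 with stage in controls, 20 with stage in mutants, 73 for control over mutant at E18.5 and 27 at E14.5.

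Ndufb5, a membrane arm subunit, gave 1732 and 1840 (E14.5 control), 2134 and 1969 (E14.5 mutant), 3079 and 3195 (E18.5 control) and 1694 and 2120 (E18.5 mutant), and its probe sets read 0.81 and 0.30 with stage in controls. Ndufb6, also of the membrane arm, gave 1951 and 2188 in the E14.5 control, 2376 and 2211 in the E14.5 mutant, 2923 and 2834 in the E18.5 control and 1598 and 1888 in the E18.5 mutant pool, and its probe sets read 0.48 and -0.09. Ndufc1, the small subunit next to Ndufc2, gave 1399 and 1728 (E14.5 control), 1881 and 1686 (E14.5 mutant), 3027 and 3179 (E18.5 control) and 1642 and 1877 (E18.5 mutant), and its probe sets read 0.99 and 0.37. The probe sets of Ndufa5 read 0.36 and -0.22, and those of Ndufa7, Ndufs8 and Ndufv1 read between 0.39 and 1.00, 0.27 and 0.82, and 0.21 and 0.79. All of these genes but Ndufa7 were higher in the E18.5 control than in the mutant without overlap.

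**Figure D4:**
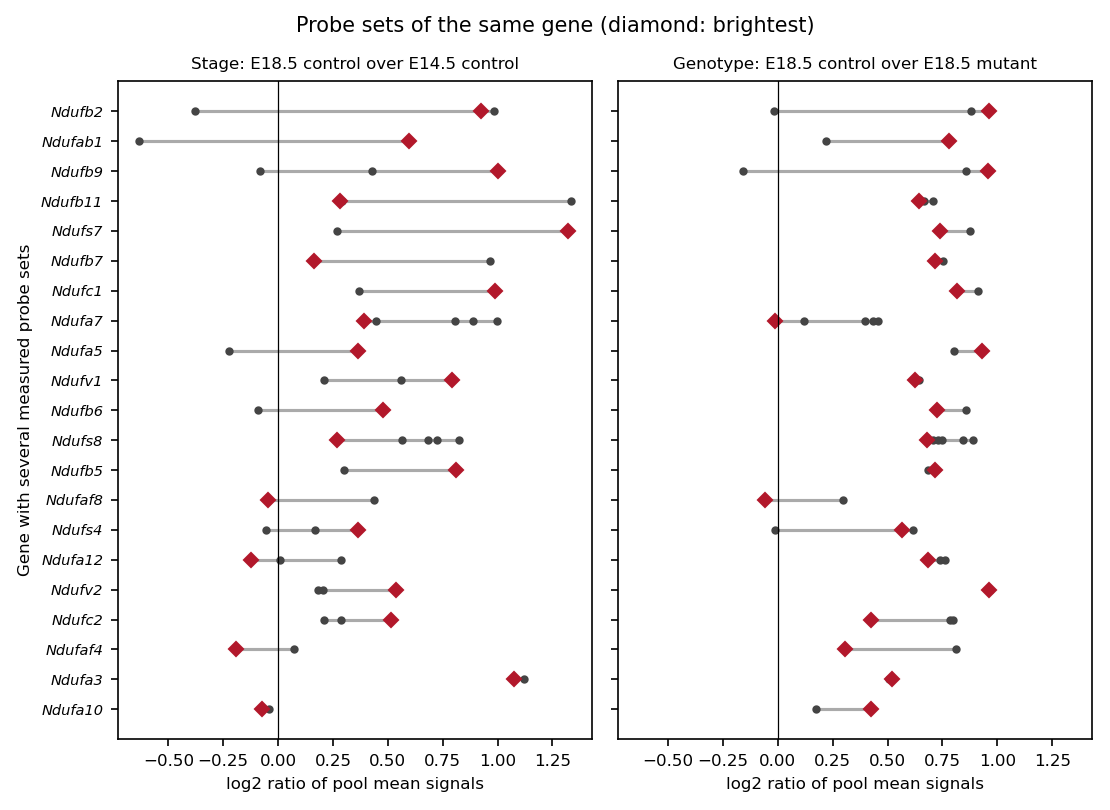
Log2 ratios of the individual probe sets (points) of the 21 Nduf genes with several measured probe sets, for E18.5 over E14.5 in controls (left) and for control over mutant at E18.5 (right), with the brightest probe set as a diamond and a grey line from the lowest to the highest. Lines are longer on the left, with a median spread of 0.57 against 0.14, and most points on the right lie between 0.5 and 1.0.

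Ndufc2, a membrane arm subunit, gave 2490 and 2904 in the E14.5 control, 2742 and 2484 in the E14.5 mutant, 3909 and 3792 in the E18.5 control and 2852 and 2886 in the E18.5 mutant pool, and by this probe set both genotypes had E18.5 arrays above their E14.5 arrays. With stage in mutants its other 2 measured probe sets gave log2 ratios of -0.47 and -0.65, so its direction there turned with the probe set. The 2 members that were not measured stayed under the lowest 40th percentile of any array, a signal of 177. Ndufb1 gave 159 and 156 (E14.5 control), 172 and 153 (E14.5 mutant), 125 and 109.5 (E18.5 control) and 109 and 113 (E18.5 mutant), and Ndufb4 gave 136 and 117 in the E14.5 control, 116 and 129.5 in the E14.5 mutant, 114 and 104 in the E18.5 control and 124 and 109 in the E18.5 mutant pool. Their ratios are not read here.

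The other accessory subunits, Ndufa1, Ndufa2, Ndufa8, Ndufa9, Ndufa10, Ndufb3, Ndufb8, Ndufs4, Ndufs5 and Ndufv3, all had E18.5 control arrays above the E18.5 mutant arrays, with ratios from 1.34 (Ndufa10) to 1.90 (Ndufa9). Ndufa9, which binds a nucleotide near the quinone site, was 1.62 (1.59 to 1.65) times higher with stage in controls and 0.78 (0.72 to 0.85) times the earlier level in mutants. The assembly factors Ndufaf1, Ndufaf3 and Ndufaf6 had ratios of control over mutant at E18.5 of 1.27, 1.18 and 1.29, also without overlap.

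Genes that work beside the members were described from lists. 11 measured assembly factors of complex I without an Nduf name, such as Acad9, Ecsit and Timmdc1, had median log2 ratios of 0.15 with stage in controls, -0.15 with stage in mutants and 0.32 for control over mutant at E18.5, near those of the Nduf assembly factors. Of these 11, 9 were higher in the E18.5 control than in the mutant without overlap and 1, Tmem186, was lower. The shares of all measured genes were 23.5% and 23.4%. Timmdc1 had the lowest log2 ratio with stage in controls (-0.78) and Aifm1, which is needed for the import of complex I subunits, the lowest in mutants (-0.90).

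The 37 measured subunits of complexes II to V had medians of 0.69, -0.06 and 0.63 in the same 3 comparisons. All 37 were higher in the E18.5 control than in the E14.5 control with arrays apart, against 37.4% of all measured genes. All 37 were also higher than in the E18.5 mutant with arrays apart, against 23.5%. In these 2 comparisons 10 and 6 of them met the 2-fold criteria, against 4.66% and 2.29%. In mutants with stage 8 were higher and 15 lower without overlap, against 30.5% and 25.3% of all measured genes. By complex, the median log2 ratio with stage in mutants was -0.06 (-0.37 to 0.22) in complex II and -0.02 (-0.25 to 0.13) in complex III. It was -0.04 (-0.04 to 0.10) in complex IV and -0.22 (-0.305 to -0.035) in complex V. Core and accessory subunits of complex I had -0.45 (-0.62 to -0.29) and -0.31 (-0.49 to -0.15). In the 13 members with both kinds of probe set this median was -0.10 by plain and -0.54 by _a_at ones, so it also hung on the kind of probe set. Whether complex I differed from the other complexes in the mutant was not tested.

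The 14 measured genes of mitochondrial import, chaperones and mass (Tomm20, Vdac1, Hspd1, Cs and others) had medians of 0.16 with stage in controls, -0.31 in mutants and 0.35 for control over mutant at E18.5. Hspe1, the small mitochondrial chaperonin, was the 1 gene of this list at least 2-fold lower with stage in mutants, at 0.46 (0.41 to 0.52). Its ratio in controls was 0.75 (0.74 to 0.76).

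**Figure D5:**
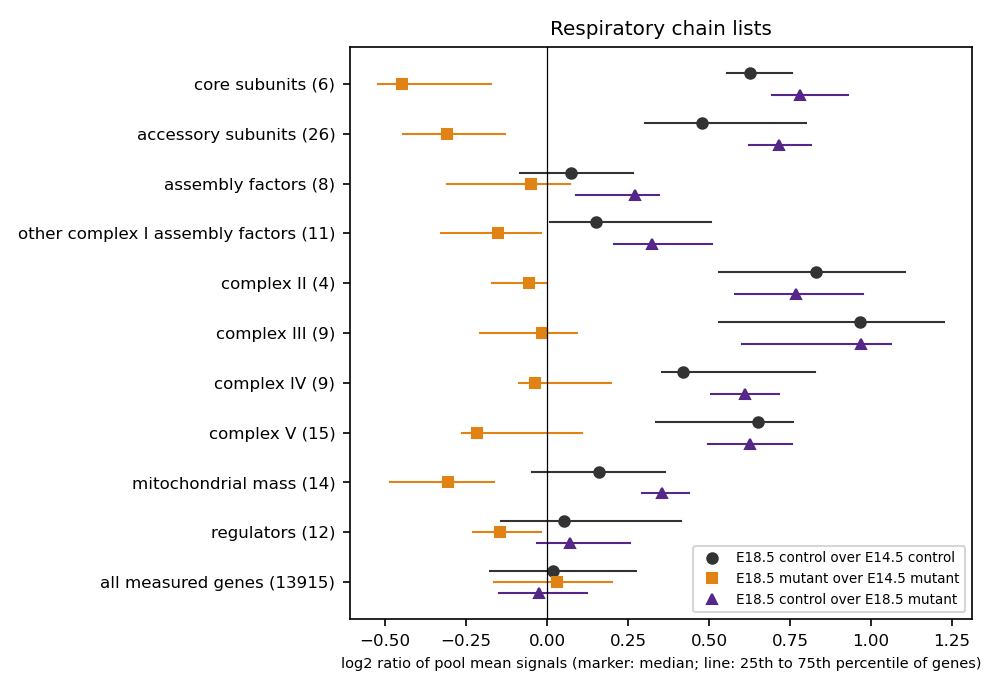
Median log2 ratios (markers) and the 25th to 75th percentile over genes (lines) of complex I classes and neighbouring lists in 3 comparisons, with the number of measured genes in brackets. Assembly factors and regulators lie nearer to 0 than the core subunits in all 3 comparisons, and the medians of E18.5 mutant over E14.5 mutant are lowest for core and accessory subunits and the mitochondrial mass list.

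The 12 listed regulators of nuclear genes for mitochondrial proteins had medians close to 0 (0.05, -0.15 and 0.07). Esrrg, an estrogen-related receptor, gave signals of 259.6 and 313 (E14.5 control), 178 and 189.9 (E14.5 mutant), 571 and 545 (E18.5 control) and 246 and 244 (E18.5 mutant), and at 2.28 (2.22 to 2.35) it was the only regulator at least 2-fold higher in the E18.5 control than in the mutant. Ppargc1a, the coactivator PGC-1α, gave 203 and 239.7 in the E14.5 control, 194 and 196 in the E14.5 mutant, 372 and 363 in the E18.5 control and 192 and 189 in the E18.5 mutant pool, a ratio of control over mutant at E18.5 of 1.93 (1.90 to 1.97) and with stage in controls of 1.66 (1.52 to 1.83). Both had E18.5 control arrays above all 6 other arrays. The E18.5 mutant signals of Ppargc1a lay near the 40th percentile of their arrays (193.5 and 177.1), on array 1 below it, so its ratio has a denominator near that limit. Esrrg was below the 40th percentile (183.9) on E14.5 mutant array 1.

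For the other 10 regulators, log2 ratios of control over mutant at E18.5 ran from -0.34 for Pprc1, a PGC-1-related coactivator, to 0.46 for Esrrb, and were 0.09 for Esrra, 0.11 for Nrf1, -0.01 for Gabpa, -0.01 for Yy1, 0.19 for Tfam, 0.05 for Ppargc1b, -0.18 for Tfb2m and -0.09 for Polrmt. With stage in controls the same genes ran from -0.75 for Tfb2m, a mitochondrial transcription factor, to 0.42 for Esrrb. Pprc1 had the lowest ratio of the list at E14.5, where control over mutant was -0.72 on the log2 scale.

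Promoter sequences of 39 of the 44 genes were matched in a RefSeq table of mouse assembly GRCm38.p6, with windows from 250 bases before to 50 bases after a gene's start. They were searched on both strands for the core letters of 4 factors known to act on genes for mitochondrial proteins. The letters GCGCANGCG (NRF1) were in 8 of the 39 genes (20.5%), against 7.03% of 27025 genes in the table. AAGATGGC (YY1) was in 7 (17.9%), against 3.19%. CCGGAAG (GABP and other ETS factors) was in 6 (15.4%) against 9.93%, and CAAGGTCA (estrogen-related receptors) in 1 (2.56%) against 1.76%. A match is a run of letters and not a bound site.

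The YY1 letters are shown, for 5 genes, because in all 7 genes they lay just past the start, 11 to 39 bases after it, and in the spelt orientation. Each line gives 30 bases, 5′ to 3′ on the gene's strand, with the motif in capitals.
Ndufs7, chr10:80249462-80249491, plus strand: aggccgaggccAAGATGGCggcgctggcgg
Ndufa3, chr7:3617384-3617413, plus strand: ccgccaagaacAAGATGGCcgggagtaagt
Ndufa9, chr6:126849097-126849126, minus strand: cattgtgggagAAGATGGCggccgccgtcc
Ndufc1, chr3:51408915-51408944, minus strand: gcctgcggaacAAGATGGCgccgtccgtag
Ndufs4, chr13:114388045-114388074, minus strand: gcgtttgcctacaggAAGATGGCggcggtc
The NRF1 letters are shown for the members with the highest ratios that hold them, on the same pattern, and they lay at no fixed distance from the start.
Ndufa6, chr15:82354248-82354277, minus strand: cgtggcaccgCGCGTGCGCacgctgaaggg
Ndufb10, chr17:24724406-24724435, minus strand: tcacctttctGCGCAGGCGtagaggtcccg
Ndufa5, chr6:24527697-24527726, minus strand: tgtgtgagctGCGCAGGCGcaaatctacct
Ndufa8, chr2:36049348-36049377, minus strand: tagagcagtgCGCTTGCGCgtcgctggaga

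Ratios were then set beside the letters, as a description. The median log2 ratio of E18.5 control over mutant was 0.78 in the 7 measured genes with the NRF1 letters and 0.68 in the 30 without, and 0.74 in the 7 with the YY1 letters and 0.68 in the 30 without. With stage in controls the medians were 0.45 and 0.45 for NRF1, 0.70 and 0.43 for YY1, and 0.26 in the 6 genes with the GABP letters and 0.48 in the 31 without. With stage in mutants they were -0.34 and -0.27 for NRF1, -0.02 and -0.31 for YY1, and -0.40 and -0.24 for GABP. The ranges with and without the letters overlapped in each of these comparisons, for YY1 with stage in controls from -0.05 to 1.32 against -0.51 to 1.63.

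Markers of several other cell types moved with the groups, while some marker lists had medians near 0. Of 11 measured proximal tubule markers, 9 were at least 2-fold higher in the E18.5 control than in the E14.5 control pool, against 4.66% of all measured genes. Likewise 9 were at least 2-fold higher than in the E18.5 mutant pool, against 2.29%. The summed signal of the 11 markers was 27730 and 28300 on the E18.5 control arrays against 1940 to 2790 on the other 6. Slc34a1, the phosphate transporter that defines the segment, read 5061 and 5027 on the E18.5 control arrays and 61.4 to 144 on the other 6. The 5 thick ascending limb markers summed to 7230 and 7033 on the E18.5 control arrays and to 825 to 1131 on the other 6. Stromal markers were higher in mutant than in control pools at both stages, with sums of 18780 and 19910 against 14980 and 15020 at E18.5 and 11660 and 12690 against 9814 and 9987 at E14.5. The 9 proliferation genes had similar median log2 ratios with stage in both genotypes (-0.82 and -0.86). Sums of the 4 erythroid genes with a named probe set were between 7919 and 9293 at E14.5 and between 839 and 919 at E18.5. With stage, 2 of these 4 were lower without overlap in each genotype, while 2 were higher in controls and 1 in mutants. Among all measured genes 28.7% (controls) and 25.3% (mutants) were lower without overlap, and 37.4% and 30.5% higher. The fall in the erythroid sums was thus not shared by all 4 genes. All 6 nephron progenitor markers were lower in the E18.5 control than in the E18.5 mutant pool without overlap, with a median log2 ratio of -0.62. Six2, a transcription factor of these cells, read 778 and 848 in control against 1312 and 1451 in mutant kidneys at E18.5. The 4 podocyte markers had a median of 1.01 in this comparison, and 3 of them were higher in control without overlap. Of the 5 collecting duct markers 4 were higher in control without overlap, with a median of 0.41, and Aqp2, its water channel, was 9.16 times higher. The 5 macrophage markers had a median of -0.30, and 4 were lower in control without overlap. The 5 intercalated cell markers had a median of 0.665, and 4 were higher without overlap. The 5 distal tubule markers had a median of -0.08, with 3 below 0 and 2 higher in control without overlap. The 5 endothelial markers had a median of 0.09, and 1 was higher without overlap. Over all measured genes, 23.5% were higher and 23.4% lower without overlap in this comparison.

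Of markers of tissue next to the kidney or rich in mitochondria, 3 of 5 adrenal cortex, 3 of 5 brown fat and 2 of 5 skeletal muscle genes were measured. Summed over all 5 genes of each list, measured or not, their signals ran from 939 to 1240, from 754 to 944 and from 950 to 1138 over the 8 arrays. Cox7a1, a complex IV subunit on the brown fat list, read 250.0 and 302 on the E18.5 control arrays and 102 to 119 on the other 6, a ratio of 2.63 with stage in controls and 2.38 for control over mutant at E18.5. Ucp1, which defines brown fat, read 184 to 240 over the 8 arrays. The part of all these cell types in the complex I values was not tested.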

How the data were processed

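RNA of 4 kidney pools was measured on 8 Affymetrix Mouse Genome 430 2.0 arrays, 2 per pool. The deposited values are linear signal intensities, 1 for each of 45101 probe sets and array; the authors scaled the scans in Microarray Suite 5.0 and then computed and normalized the signals in dChip with an invariant probe set. Array medians ran from 225 to 243, above the median intensities that the paper gives after normalization. Whether the 2 refer to the same values was not given, and the values were used as deposited. Precision is limited by how few arrays there were. No 2 columns were identical. The platform table named 1 gene on 34958 probe sets, several on 932 and listed no gene for 9211; 34754 of those with 1 gene were matched to RefSeq by gene identifier, as were all 88 Nduf probe sets. A further 10 Nduf probe sets with several symbols were left out.

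Where a gene had several probe sets, the one with the highest mean over the 8 arrays was used. Ratios were taken between arithmetic means of duplicate arrays, with the range over the 4 pairings of arrays; a list median could lie outside this range. The criteria of size followed the study: a ratio of at least 2 that exceeded the duplicate fold in both pools, and a mean times ratio above 100. In place of its present calls, the higher pool had to reach each array's own 40th percentile. With 1 pool per condition no test was run.

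The members and lists were chosen with earlier results of these data known. Any of the 44 members could be named; not every Nduf gene is reported here. Array values are given for the 3 brightest of each class, the 5 highest and 3 lowest ratios of each comparison, members at least 2-fold apart, members not measured and members whose probe sets differed by more than 0.5 with stage in controls. Motifs were counted in RefSeq promoter windows (GRCm38.p6). The criteria of size, the ratios and the reading of arrays without overlap were tested on simulated arrays with independent noise. The choice of probe sets, the list medians and the motif counts were not tested in this way. Alternatives were the 50th percentile, a 1.5-fold threshold, quantile normalization, scaling to 1 median, an added 50 units, the mean of all measured probe sets, each array left out and, chosen after seeing the data, the brightest probe set without an s or x suffix. Python 3.11.15, numpy 2.4.6, pandas 2.3.3 and matplotlib 3.10.9 were used.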

Additional observations from a re-analysis of the deposited data

Results flagged for a closer look

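The change from E14.5 to E18.5 had all array pairings above 0 in controls and below 0 in mutants for the medians of several lists. The log2 change in controls minus that in mutants was 0.718 for all Nduf genes and the same for complex I subunits and assembly factors alone, 1.071 for core subunits, 0.759 for accessory subunits, 0.216 for assembly factors, 0.701 for the electron input module, 1.057 for the quinone-binding module and 0.918 for the membrane arm subunits with Ndufb names. Some lists outside the Nduf genes did likewise, with 0.481 for the other complex I assembly factors and 0.476 for mitochondrial import, chaperones and mass. Complexes II to V together had 0.63, with a highest pairing in mutants of -0.001, and complex V alone had 0.578. Complexes II, III and IV did not meet this rule by themselves, as their highest pairings in mutants were 0.224, 0.128 and 0.102. The lists overlap, so their values are not separate observations.

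The same held for 20 genes. The difference was 1.108 for Ndufs1, 1.043 for Ndufs3, 0.798 for Ndufs8 and 1.098 for Ndufv2 among core subunits, and 0.524 for the assembly factor Ndufaf1. Among accessory subunits it was 0.664 for Ndufa1, 1.071 for Ndufa5, 0.783 for Ndufa8, 1.052 for Ndufa9, 0.64 for Ndufa13, 1.066 for Ndufab1, 0.512 for Ndufb3, 0.872 for Ndufb6, 0.828 for Ndufb7, 0.989 for Ndufb8, 1.267 for Ndufb9, 1.195 for Ndufb10, 0.49 for Ndufb11, 0.639 for Ndufs4 and 0.701 for Ndufv3. None of these differences was tested, since each condition had 1 RNA pool. Of the 20 genes, 11 had 1 measured probe set. Of the 9 with several, all probe sets were above 0 in controls and below 0 in mutants in 3 (Ndufb7, Ndufs8 and Ndufv2), while Ndufa5, Ndufab1, Ndufb6, Ndufb9, Ndufb11 and Ndufs4 had at least 1 measured probe set that was not.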

How the results depend on the processing

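The median log2 ratios of the 42 members kept their sign in every alternative run for E18.5 over E14.5 in controls, for E18.5 over E14.5 in mutants and for control over mutant at E18.5, while at E14.5 the median (-0.070) came to 0.001 without E14.5 mutant array 1. Quantile normalization gave 0.380 for the controls' stage change, 0.519 for control over mutant at E18.5 with 1 gene at least 2-fold higher, and 0.526 for the stage change in controls minus that in mutants. Leaving out 1 array at a time gave medians from 0.414 to 0.538 (controls with stage), from -0.431 to -0.187 (mutants with stage), from 0.568 to 0.820 (control over mutant at E18.5) and from -0.159 to 0.001 (at E14.5), and counts of members at least 2-fold higher from 0 to 1 in mutants with stage and from 0 to 8 for control over mutant at E18.5. With 50 added to each signal the count in mutants with stage was 0. A 1.5-fold threshold gave 17 members higher with stage in controls (11.2% of all measured genes), 27 higher in E18.5 control over mutant (5.37%), 5 lower with stage in mutants (5.05%) and 1 lower in E14.5 control over mutant (0.374%). Of 64 alternatives of these medians 57 moved by less than the spread over array pairings and 7 by more; for single genes these counts were 371 and 24. The assembly factor median with stage in controls (0.073) ran from -0.011 to 0.206 and so has no settled sign. No paired analysis was possible because the array numbers mark technical preparations of 1 pool and no result comes from a test. Signals near the 40th percentile limit the reading of Ndufb1 and Ndufb4.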
